A study of Rattus norvegicus with 6 samples.

Results

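Cryab, the small heat shock protein genes, their co-chaperone gene Bag3 and the heat shock transcription factor gene Hsf1 were examined after NQO1 knockdown. The members were the rows of the read count and FPKM (read fragments of a gene, scaled for transcript length and library depth) tables whose gene symbol was Cryab, Hspb1, Hspb2, Hspb3, Hspb6, Hspb7, Hspb8, Bag3 or Hsf1. Of these 9 genes, 8 were among the 18746 genes of the read count table, and Hspb3, a small heat shock protein gene of muscle, had no row, so its expression was not analysed here. PC12 cells, a line from a pheochromocytoma of the rat adrenal medulla, received an siRNA to NQO1 (siNQO1, 3 libraries) or a nontargeting siRNA (siCtrl, 3 libraries) by lipid transfection and were otherwise alike in the labels. The labels name the same groups shNQO1 and Ctrl and describe an shRNA and a control plasmid, so the kind of reagent differs between the sources while the grouping does not. Cells were harvested at 48 h for RT-qPCR, and the harvest time of the sequenced cells is not given in the sources used here. Each group rests on 1 reagent in 1 cell line, and nothing in the labels says that the 3 libraries of a group came from separate cultures. The paper calls them biological replicates without saying how they were raised, so the p-values measure the spread between these libraries, part of which may be technical.

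Small heat shock proteins share an alpha-crystallin domain and assemble into large oligomers that bind unfolding proteins without using ATP and hold them for refolding or removal. HSF1 is the transcription factor that switches on many chaperone genes when unfolded proteins accumulate. BAG3 joins small heat shock proteins, above all HSPB8, to the HSP70 chaperones and passes their clients to autophagy.

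Reads counted in genes ran from 32789228 to 39467230 in siNQO1 libraries and from 28873824 to 35235040 in siCtrl libraries. Nqo1 itself, the quinone reductase targeted by the siRNA, was at 80.8, 75.2 and 77.7 FPKM in siNQO1 and at 368.6, 320.5 and 345.3 FPKM in siCtrl. One control library stood apart from the rest. On the first principal component of log2 CPM (read counts scaled to library size), siCtrl replicate 2 had a score of -5.08, between the siNQO1 libraries (-19.6 to -12.1) and the other siCtrl libraries (20.7 and 32.2). The markers of the labelled cell type were close to absent in every library. Of 10 genes chosen as markers of chromaffin and PC12 cells, 9 were in the tables, among them Th, which encodes the rate-limiting enzyme of catecholamine synthesis, and Dbh, Chga and Chgb, and they summed to 0.58 to 0.67 FPKM in siNQO1 and 0.76 to 0.91 FPKM in siCtrl. None of them was over 1 FPKM in any library. Of 7 markers of Schwann cells and glia, 4 were over 1 FPKM in every library, with a sum of 383.1 to 389.8 FPKM in siNQO1 and 428.1 to 492.3 FPKM in siCtrl. Sox10, a transcription factor of glial and neural crest cells, was at 192.5, 205.3 and 207.5 FPKM in siNQO1 and at 222.0, 198.5 and 232.8 FPKM in siCtrl. The cells are called PC12 here only as the labels give them.

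Cryab was by far the most abundant member, and the members fell into a group of 4 that were over 1 FPKM in every library and a group of 4 that were under 1 FPKM in every library. Over the 6 libraries Cryab ran from 195.8 to 345.7 FPKM, Bag3 from 31.5 to 38.8, Hspb6 from 31.1 to 35.6 and Hsf1 from 20.5 to 23.4. Bag3 and Hspb6 were neighbors in this order whose ranges overlapped, and Bag3 was the higher of the pair in 4 of 6 libraries. The ranges of Cryab and Bag3 did not overlap, and neither did those of Hspb6 and Hsf1. Below them came Hspb2, from 0.24 to 0.72 FPKM, and Hspb7, from 0.12 to 0.36 FPKM, whose ranges overlapped although Hspb2 was higher in 6 of 6 libraries. Hspb1 and Hspb8 were listed at 0 in 5 of 6 libraries each. By FPKM, Cryab ranked between 263 and 275 of 18674 genes in siNQO1 libraries and between 396 and 446 in siCtrl libraries.

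**Figure D1:**
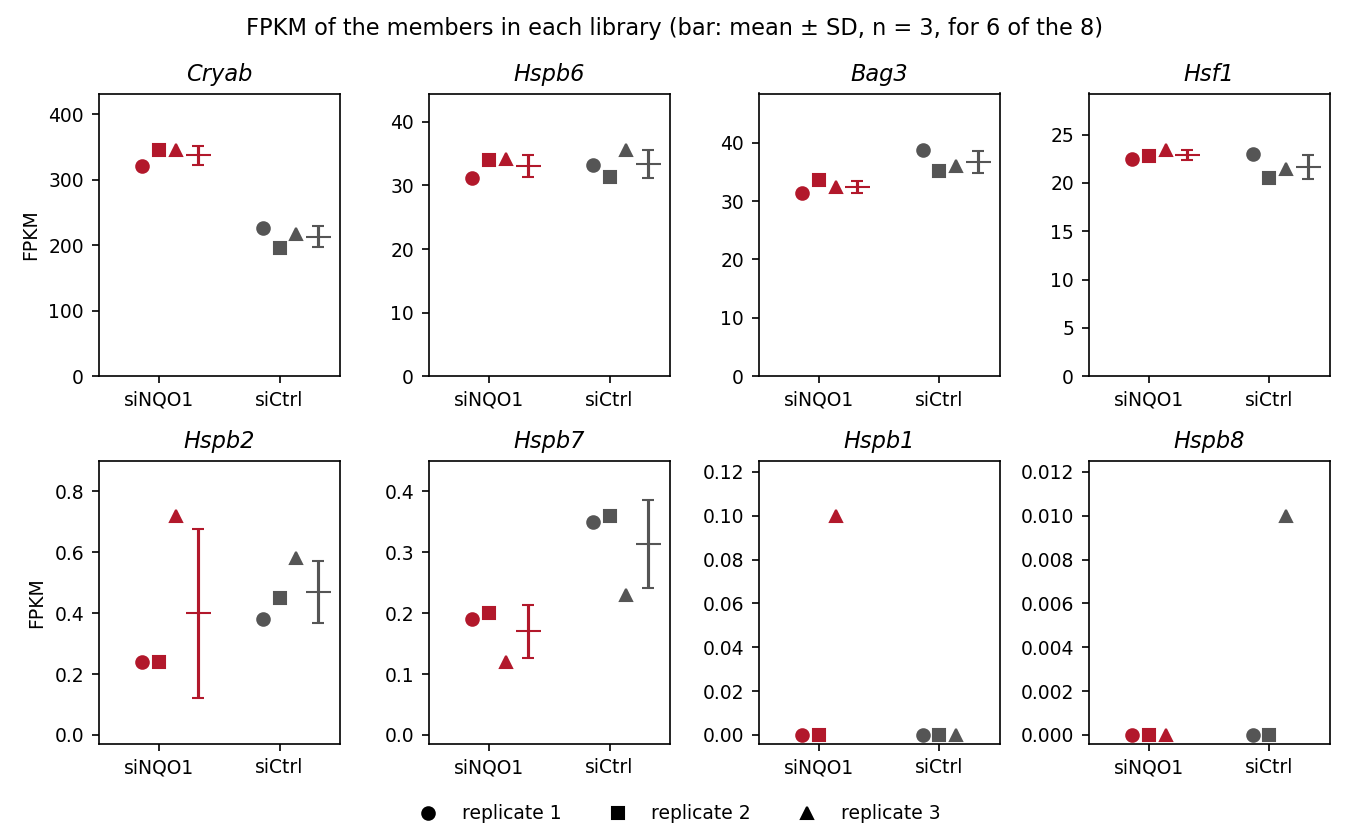
FPKM (vertical axes, linear, on a scale of their own for each gene) of the 8 members in the 6 libraries. Red points are siNQO1 and gray points are siCtrl, the shape gives the replicate number, and the bar is the mean ± SD of 3 libraries for the 6 genes not listed at 0. The 3 siNQO1 libraries sit between 321.0 and 345.7 FPKM for Cryab, all above the siCtrl libraries, which reach 226.6 FPKM, whereas the groups overlap for Hspb6, Hsf1 and Hspb2.

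After NQO1 knockdown Cryab rose and no other member passed the test in either direction. Of the 8 members in the tables, 5 passed the filter on low counts and were tested, namely Cryab, Hspb6, Hspb7, Bag3 and Hsf1. With an adjusted p under 0.05 from the quasi-likelihood test of edgeR, 1 of these 5 was higher, none was lower and 4 were not called. Over all 12420 genes tested, 5.27% were called higher, 7.38% lower and 12.6% in either direction. The same test gave an unadjusted p under 0.05 for 3 of the 5 members, against 29% of all genes, and DESeq2 likewise called none lower. None of the 5 also passed the fold of 2 that the study required, which 0.435% of all genes did, and 1, Cryab, was called higher with a fold over 1.5, which 1.02% of all genes were. In scaled CPM the groups did not overlap for 4 of the 5 members, against 34.2% of all genes. Cryab and Hsf1 lay higher in this way, against 16.3% of all genes, and Bag3 and Hspb7 lower, against 17.9%.

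Cryab encodes alpha-B crystallin, the small heat shock protein that is most abundant in lens and striated muscle and also occurs in glia. It is listed as ENSRNOG00000010524 on chromosome 8. Its level was 321.0, 345.4 and 345.7 FPKM in siNQO1 replicates 1, 2 and 3 and 226.6, 195.8 and 217.5 FPKM in siCtrl replicates 1, 2 and 3. Every siNQO1 library thus lay above every siCtrl library, and siCtrl replicate 2 was the lowest of the 6. The means were 337.3 ± 14.2 FPKM in siNQO1 and 213.3 ± 15.8 FPKM in siCtrl (SD, n = 3 each). In reads, 15453, 16397 and 19667 were counted for Cryab in siNQO1 and 9376, 9923 and 11023 in siCtrl. By edgeR Cryab rose with a log2 fold change of 0.67 (standard error 0.065) and an adjusted p of 0.000748, which is a 1.60-fold rise with a 95% interval from 1.44 to 1.77. The upper bound lies under a fold of 2. The paper, which required that fold, lists Cryab among its differentially expressed genes, so the call here differs from the published one. It also reports a rise of Cryab by RT-qPCR, on RNA left over from preparing the libraries. A two-sided exact permutation test of its FPKM gave p = 0.10, the smallest that 3 libraries against 3 allow. Without siCtrl replicate 2, the control library with the lowest Cryab, the log2 fold change of Cryab was 0.61 (adjusted p = 1.45e-06 from edgeR).

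The rise of Cryab was large for a gene of its abundance. Of 395 genes tested whose average log2 CPM was at least that of Cryab, 49 were called higher and 34 lower in siNQO1. Of these abundant genes 1 had a larger log2 fold change than Cryab, namely the collagen gene Col5a2, which was chosen after its values were seen (log2 fold change 0.87, adjusted p = 6.66e-05 from edgeR). Among all 654 genes called higher, 90 had a larger log2 fold change than Cryab.

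The level of Cryab relative to the other abundant members was higher in siNQO1 than in siCtrl. These ratios, taken within each library, restate the changes of the single genes and are no separate evidence. The log2 ratio of the FPKM of Cryab to that of Hspb6 was 3.37, 3.34 and 3.34 in siNQO1 and 2.77, 2.65 and 2.61 in siCtrl. The ratio of Cryab to Bag3 was 3.35, 3.36 and 3.41 in siNQO1 and 2.55, 2.48 and 2.60 in siCtrl. The ratio of Cryab to Hsf1 was 3.84, 3.92 and 3.88 in siNQO1 and 3.30, 3.26 and 3.34 in siCtrl. Every siNQO1 library lay above every siCtrl library in each of these 3 ratios. The differences between the group means were 0.67, 0.84 and 0.58, against standard deviations within groups of at most 0.081. Two-sided exact permutation tests gave p = 0.10 for each of the 3 pairs, the smallest possible, and 0.10 after adjustment over them. Of the summed FPKM of the 6 small heat shock protein genes measured, Cryab made up 90.8% to 91.0% in siNQO1 libraries and 85.7% to 87.0% in siCtrl libraries. The remaining 5 genes summed to 31.5 to 35.2 FPKM in siNQO1 and 32.1 to 36.4 FPKM in siCtrl. The shares and these sums take the near-zero values of Hspb1 and Hspb8 as listed. They would change if those genes were undercounted.

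**Figure D2:**
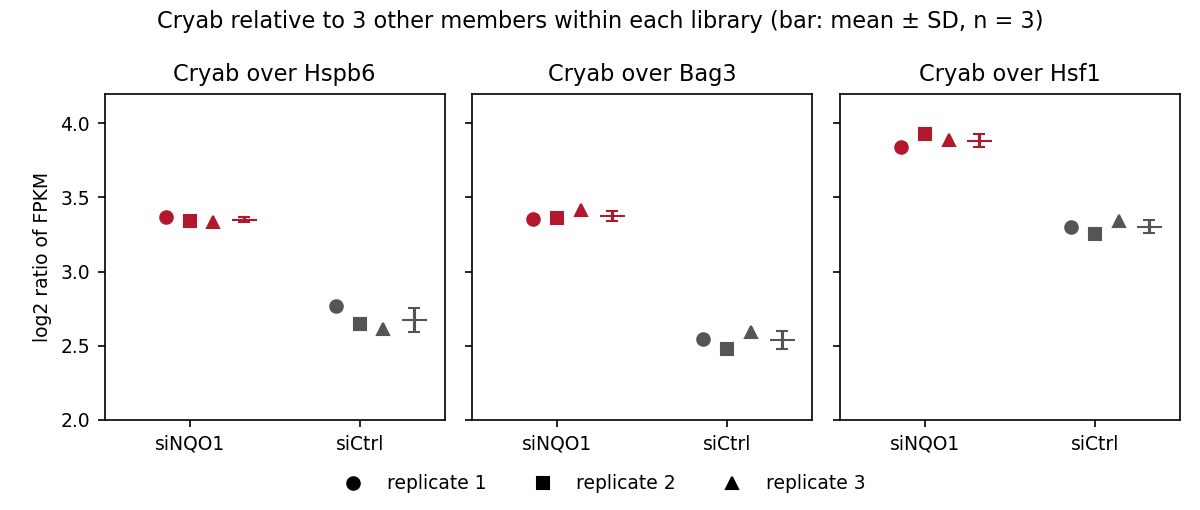
Log2 ratio of the FPKM of Cryab to that of Hspb6, Bag3 and Hsf1 within each library (vertical axis, from 2 to 4.2, not from 0). Red points are siNQO1 and gray points are siCtrl, the shape gives the replicate number and the bar is the mean ± SD of 3 libraries. The siNQO1 libraries lie above the siCtrl libraries in each panel, by 0.67, 0.84 and 0.58 between the means.

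Hspb6 encodes HSP20, a small heat shock protein known from muscle as a substrate of cyclic nucleotide-dependent kinases. It was at 31.1, 34.1 and 34.2 FPKM in siNQO1 and at 33.3, 31.3 and 35.6 FPKM in siCtrl, and the groups overlapped throughout. Its log2 fold change in edgeR was 0.0018, with a standard error of 0.072 and an adjusted p of 0.989. The 95% interval, from -0.16 to 0.17, does not reach a change as large as that of Cryab in either direction. Hspb7, known from heart muscle, was read 15, 15 and 11 times in siNQO1 and 23, 29 and 19 times in siCtrl. All its siNQO1 libraries were below all its siCtrl libraries, at 0.19, 0.20 and 0.12 FPKM in siNQO1 and 0.35, 0.36 and 0.23 FPKM in siCtrl. Its log2 fold change of -0.86 (standard error 0.33) did not pass (adjusted p = 0.129 from edgeR, unadjusted p = 0.0305). At 41 reads over the siNQO1 libraries and 71 over the siCtrl libraries, the 95% interval of the Hspb7 change ran from -1.62 to -0.10.

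Hspb2, Hspb1 and Hspb8 were too low to be tested. Hspb2, whose protein binds the myotonic dystrophy kinase in muscle, was read 5, 5 and 18 times in siNQO1 and 7, 10 and 13 times in siCtrl. The siNQO1 libraries thus held both the highest and the lowest counts. In CPM, Hspb2 was at 0.151 (95% Clopper-Pearson interval 0.0492 to 0.353) in siNQO1 replicate 1 and at 0.456 (0.270 to 0.721) in siNQO1 replicate 3, and these intervals overlapped. Such intervals cover counting error only. Hspb2 and Cryab are neighbors on chromosome 8, and their spans overlap in the RefSeq annotation of GRCr8. Whether their spans overlap in the annotation that the authors counted on was not checked. If they do, reads in the overlap could have gone to either gene. The sources used here do not say whether the counting used strand. Hspb2 held 5 to 18 reads per library beside 9376 to 19667 of Cryab.

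Hspb1, which encodes the widely expressed HSP27, was listed at 0 reads in siNQO1 replicates 1 and 2 and in all siCtrl libraries, and at 4 reads in siNQO1 replicate 3. Hspb8, whose protein is the partner of BAG3, was listed at 0 reads in all siNQO1 libraries and in siCtrl replicates 1 and 2, and at 1 read in siCtrl replicate 3. A count of 0 allows up to 3 reads by a 1-sided 95% limit. In CPM that limit is 0.076 to 0.0915 in siNQO1 libraries and 0.0851 to 0.104 in siCtrl libraries. The 2-sided Clopper-Pearson intervals of these zeros reach further, up to 0.1125 CPM in siNQO1 libraries and 0.1278 CPM in siCtrl libraries. These limits cover counting error only and hold for the uniquely mapped reads that the authors counted. Some genes that cells use throughout, chosen after their values were seen, were counted low in the same table. Hspa8, the constitutive HSP70 gene, was at 1.88, 1.63 and 1.85 FPKM in siNQO1 and 1.79, 1.57 and 1.76 FPKM in siCtrl, and Hsp90aa1 was read 2, 69 and 91 times in siNQO1 and 17, 740 and 11 times in siCtrl. The zeros of Hspb1 and Hspb8 are therefore given only as listed.

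Bag3, the co-chaperone gene, is listed as ENSRNOG00000020298 on chromosome 1. It was at 31.5, 33.5 and 32.5 FPKM in siNQO1 and at 38.8, 35.2 and 36.0 FPKM in siCtrl, so each siNQO1 library was below each siCtrl library. Its means were 32.5 ± 1.04 FPKM in siNQO1 and 36.6 ± 1.89 FPKM in siCtrl (SD, n = 3 each). The log2 fold change of Bag3 was -0.16 (standard error 0.055), which did not pass (adjusted p = 0.0930 from edgeR). Without siCtrl replicate 2 it was -0.19 and did pass (adjusted p = 0.00788 from edgeR), while with any other library left out or any other setting it did not (adjusted p up to 0.186). Its 95% interval, from -0.28 to -0.04, does not reach the change of Cryab in either direction. Hsf1, listed as ENSRNOG00000021732 on chromosome 7, was at 22.4, 22.8 and 23.4 FPKM in siNQO1 and at 23.0, 20.5 and 21.4 FPKM in siCtrl. The groups overlapped in FPKM, while in scaled CPM the siNQO1 libraries lay above the siCtrl libraries. The log2 fold change of Hsf1 was 0.09 (standard error 0.059, 95% interval -0.04 to 0.23, adjusted p = 0.333 from edgeR).

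**Figure D3:**
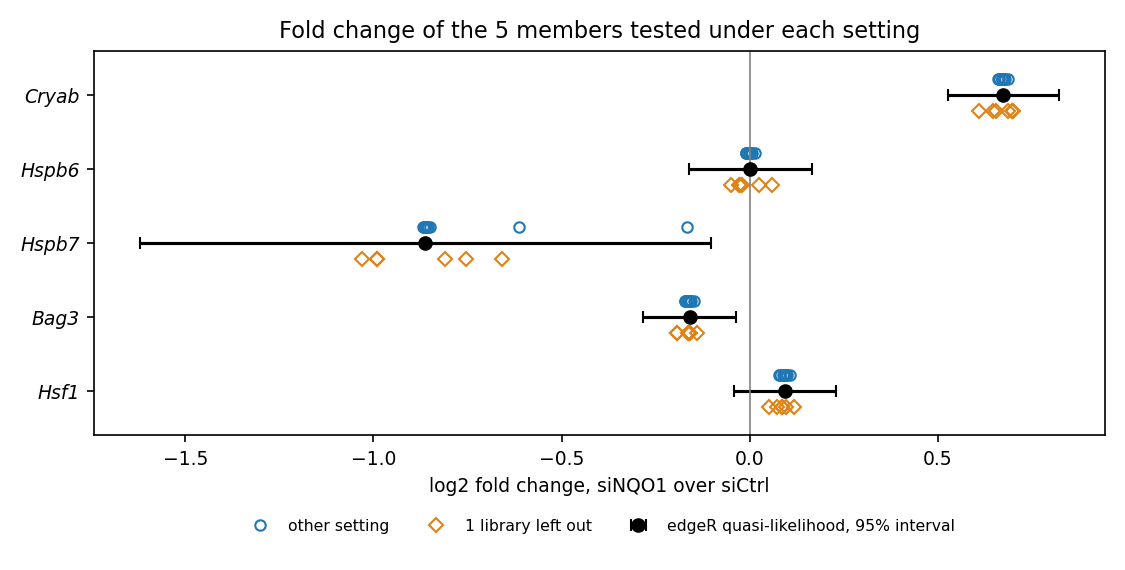
Log2 fold change of siNQO1 over siCtrl (horizontal axis) for the 5 members tested. Black points are the quasi-likelihood fit of edgeR with its 95% interval, blue circles are other scalings, filters, tests and tables, and orange diamonds are fits with 1 library left out. Cryab stays between 0.61 and 0.70 throughout, Hspb6 stays near 0, and Hspb7 spreads from -1.03 to -0.17.

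Of the members whose promoters could be read, 4 hold the same match to the heat shock element, and these sites are shown for that reason. The heat shock element, the site that HSF1 binds, is built from inverted GAA units, and GAANNTTC and TTCNNGAA, each its own reverse complement and thus read on both strands, were searched in RefSeq sequences of GRCr8 from 250 bases before to 50 after the annotated start. Promoters of 6 members were matched, those of Hspb1, Hspb3, Hspb6, Hspb7, Hspb8 and Bag3. Cryab, Hspb2 and Hsf1 had no entry among the promoter sequences and were not searched, so nothing is said of their sites. In the lines below, each 5′ to 3′ on the strand of the gene, capitals mark the match.
Hspb1, chr12:26432414-26432439, minus strand: tcaactagaGAAGTTTCcagatgggg
Hspb6, chr1:94934214-94934239, plus strand: gtaattattGAAGTTTCtaaataagg
Hspb8, chr12:45837276-45837301, plus strand: aagccaggaGAAGTTTCtaggcgcgt
Bag3, chr1:192533319-192533344, plus strand: atgggaccaGAAGTTTCtagccggcc
These matches begin 129 bases before the start in Hspb1, 149 in Hspb6, 23 in Hspb8 and 132 in Bag3. All 4 read GAAGTTTC, a form noticed after the search, which 1.39% of the 33469 promoters in the table hold on either strand. GAANNTTC is in 8.59% of them, and GAANNTTC or TTCNNGAA in 15.9%. Hspb1 holds a further GAANNTTC and Hspb6 a TTCNNGAA, and neither motif was found in the windows of Hspb3 and Hspb7. A match is a sequence only. Of the 4 genes that hold it, Hspb6 and Bag3 were at 31.1 to 38.8 FPKM, and Hspb1 and Hspb8 are the genes whose zeros are given only as listed.

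The chaperones that HSF1 induces, a list chosen like the other lists with earlier results of these data known, held no gene called higher beside Cryab. Of 20 tested, none was higher, 3 were lower and 17 did not pass, where 5.27% of all genes were higher and 7.38% lower. A list of 20 is too short to set against these shares. The list had a median log2 fold change of 0.04 against 0.01 over all genes tested. Of its 23 genes, Hspa1a, Hspe1 and Ubb had no row and were not tested. Hspa8 and Hsp90aa1, counted low as given above, were among the 20 tested. The 3 were Dnajb1, an HSP40 that activates HSP70 (log2 fold change -0.26), the HSP90 gene Hsp90ab1 (-0.25) and the chaperonin subunit Cct2 (-0.20), with adjusted p of 0.0248, 0.0396 and 0.0312 from edgeR. Hsp90ab1, the most abundant of them, was at 667.3, 671.4 and 691.1 FPKM in siNQO1 and 870.1, 752.9 and 808.1 FPKM in siCtrl. The stress-inducible Hspa1b, named after its values were seen, at 1.11 ± 0.144 FPKM in siNQO1 and 0.723 ± 0.124 FPKM in siCtrl (SD, n = 3 each), missed the threshold at a log2 fold change of 0.64 (adjusted p = 0.0561 from edgeR), and so did the HSP40 gene Dnaja1 at 0.29 (adjusted p = 0.0627), both with no overlap between the groups. None of the 3 calls held without siNQO1 replicate 2 or 3 or siCtrl replicate 3, and those of Hsp90ab1 and Cct2 did not hold without siNQO1 replicate 1 either. Their highest adjusted p were 0.0908 for Dnajb1, 0.116 for Hsp90ab1 and 0.0961 for Cct2. Hsf2, the related factor, and the HSF1-binding protein gene Hsbp1 had log2 fold changes of -0.08 and -0.01, and none of 3 genes tested in the list of heat shock factors and their binding proteins was called.

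Most partners of BAG3 did not pass the test, and those that did lay in both directions. Of 5 other BAG genes tested, Bag1, which also binds HSP70, had a log2 fold change of -0.20 (adjusted p = 0.0487 from edgeR) and 4 were not called. Over all genes 7.38% were called lower. Of 14 genes tested in the list of partners in BAG3-dependent autophagy, 1 was higher, 3 were lower and 10 did not pass, against 5.27% higher and 7.38% lower over all genes, with a median log2 fold change of 0.04. Wipi1, which acts in autophagosome formation, rose, with 56.0, 56.6 and 55.6 FPKM in siNQO1 and 39.5, 38.6 and 42.8 FPKM in siCtrl (log2 fold change 0.49, adjusted p = 0.00188 from edgeR). Ywhag, a 14-3-3 protein that links BAG3 to dynein, fell, with 87.2, 81.9 and 84.5 FPKM in siNQO1 and 109.8, 104.7 and 109.9 FPKM in siCtrl (log2 fold change -0.34, adjusted p = 0.00494). The autophagy receptor Sqstm1 and the ubiquitin ligase Stub1, which encodes CHIP, had log2 fold changes of -0.25 and -0.22 (adjusted p = 0.0299 and 0.0429). Wipi1 and Ywhag were called with each library left out. Sqstm1 lost its call without any siNQO1 library or siCtrl replicate 3, and Stub1 and Bag1 lost theirs also without siCtrl replicate 1, with highest adjusted p of 0.0943, 0.139 and 0.147.

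Among the kinases that phosphorylate small heat shock proteins, the p38 pathway held calls in both directions. Mapkapk3 and Prkd2 were called higher, Mapk14 was called lower and the other 5 of 8 tested were not called, with a median log2 fold change of -0.07. Over all genes 5.27% were called higher and 7.38% lower, and a list of 8 is too short to set against these shares. Mapkapk3, which encodes the p38-activated kinase MK3, was at 111.9, 110.8 and 115.7 FPKM in siNQO1 and 87.1, 78.1 and 81.0 FPKM in siCtrl (log2 fold change 0.47, adjusted p = 0.00154 from edgeR). Mapk14, which encodes p38 alpha, was at 16.8, 16.5 and 17.1 FPKM in siNQO1 and 22.7, 21.6 and 21.7 FPKM in siCtrl (log2 fold change -0.38, adjusted p = 0.00263). The genes of p38 alpha and of a kinase that it activates thus changed in opposite directions, and the groups overlapped in neither. Both were called with each library left out. Prkd2, a protein kinase D gene, rose by 0.38 on the log2 scale (adjusted p = 0.0172) and was not called without siNQO1 replicate 1 or 2 (highest adjusted p = 0.0768). Mapkapk2, which encodes MK2, had a log2 fold change of -0.08 (adjusted p = 0.380).

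The RNA of Vim, the gene of the intermediate filament protein vimentin, a client of alpha-B crystallin, was called higher, as was that of Cryab. Vim was at 3120, 3182 and 3255 FPKM in siNQO1 and 2613, 2414 and 2604 FPKM in siCtrl, with no overlap (log2 fold change 0.34, adjusted p = 0.0107 from edgeR). It was not called without siNQO1 replicate 3 (adjusted p = 0.0540). Of 5 intermediate filament genes tested, Vim was called higher and 4 were not called, where 5.27% of all genes were called higher. The peripherin gene Prph had a log2 fold change of 0.21 (adjusted p = 0.0894) and the lamin gene Lmna one of 0.04. Gfap had one of -0.19 (adjusted p = 0.338 from edgeR), and of the 5 changes 3 were positive and 2 negative. Of the further small heat shock genes, Hspb11 alone was tested and did not pass (log2 fold change 0.17, adjusted p = 0.315 from edgeR). Over all lists together, 12 of 55 distinct genes tested, or 21.8%, were called, 4 of them higher and 8 lower, against 12.6% of all genes. Without siNQO1 replicates 1, 2 and 3, the number called was 6, 5 and 5, and without siCtrl replicates 1, 2 and 3 it was 10, 22 and 6.

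**Figure D4:**
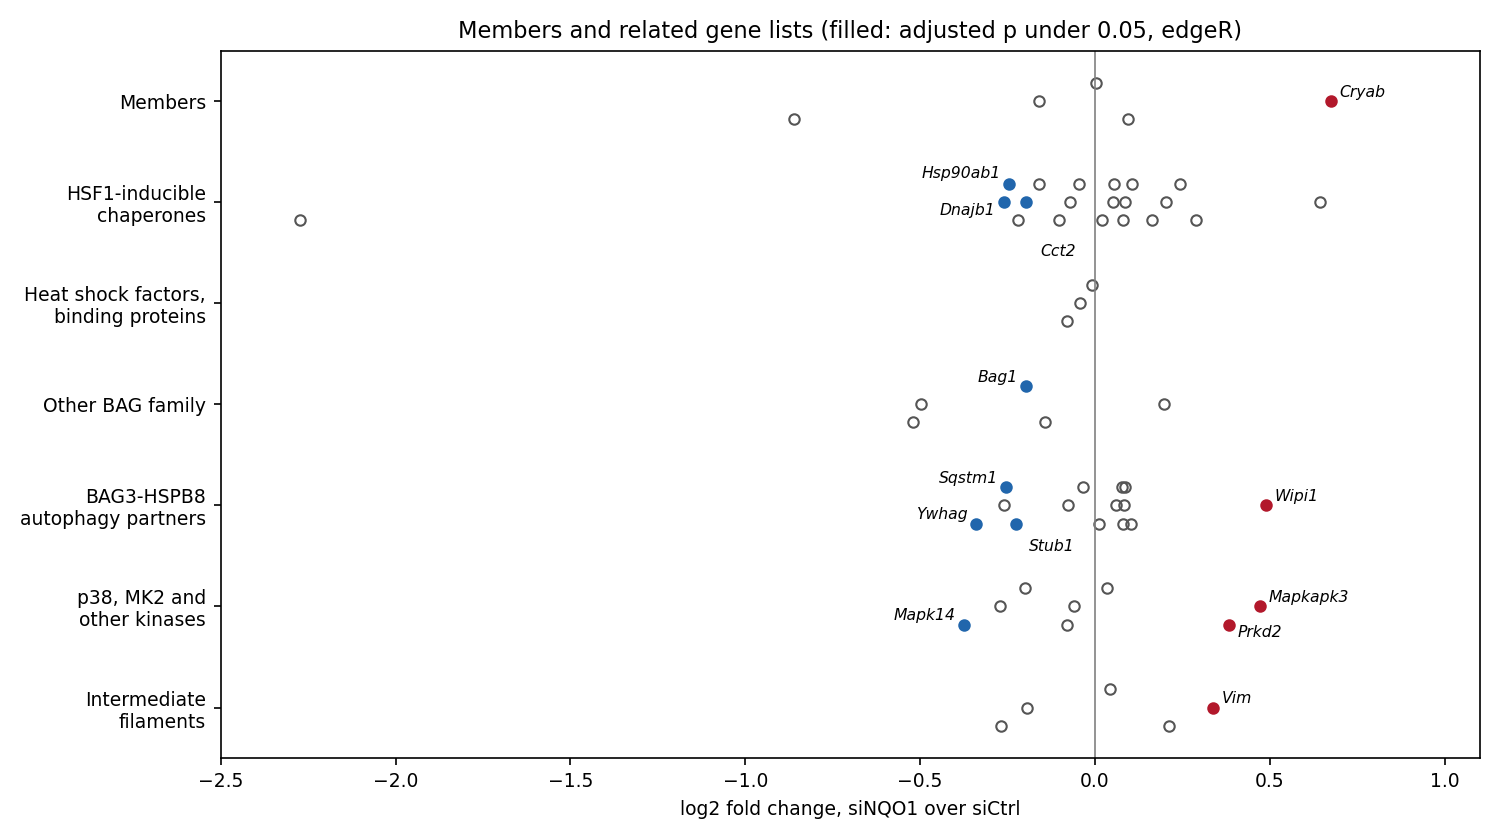
Log2 fold change of siNQO1 over siCtrl (horizontal axis) of each gene tested, for the 5 members and 6 related lists (rows, with points spread vertically for legibility). Filled points passed an adjusted p under 0.05 in edgeR, red higher and blue lower, and open points did not. Cryab lies to the right of every other point, the HSF1-inducible chaperones that were called lie below 0, and Hsp90aa1, not called, is the point at -2.27.

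A glial marker differed between the groups as well. S100b was at 175.1, 170.3 and 169.0 FPKM in siNQO1 and 236.4, 221.1 and 250.4 FPKM in siCtrl (log2 fold change -0.45, adjusted p = 0.00329 from edgeR). S100b, a calcium-binding protein gene of glia, thus fell with no overlap between the groups, while Sox10 was not called (log2 fold change -0.10, adjusted p = 0.395 from edgeR). Their part in the change of Cryab was not tested. Markers of skeletal and cardiac muscle, where Cryab is abundant, summed to 5.13 to 6.54 FPKM in siNQO1 and 4.77 to 5.03 FPKM in siCtrl. Most of this sum was Tnnt2, at 5.70, 4.46 and 5.50 FPKM in siNQO1 and 3.99, 4.34 and 3.67 FPKM in siCtrl. Tnnt2 was not called (log2 fold change 0.40, adjusted p = 0.0863 from edgeR), and Myog had no row. Lens markers summed to 0.95 to 1.70 FPKM in siNQO1 and 0.85 to 1.32 FPKM in siCtrl. Cryaa, the other alpha-crystallin gene and a lens marker, had 1 read in siNQO1 replicate 3 and was listed at 0 in the other 5 libraries.

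The genes whose pattern over the 6 libraries was closest to that of Cryab were Ctsf, a lysosomal cysteine protease gene, Numbl, which is known from neural development, Lxn, a carboxypeptidase inhibitor gene, and Atoh8, a transcription factor gene. Likeness was the root mean square difference of log2 CPM, each gene relative to its siCtrl mean over 7320 genes whose average log2 CPM exceeded 4. It was 0.031 for Ctsf, 0.048 for Numbl, 0.062 for Lxn and 0.065 for Atoh8. On this scale Cryab was 0.62, 0.71 and 0.70 in siNQO1 libraries and 0.08, -0.13 and 0.05 in siCtrl libraries. Ctsf was 0.66, 0.70 and 0.73 in siNQO1 libraries and 0.11, -0.18 and 0.07 in siCtrl libraries. Both were lowest in siCtrl replicate 2, which follows from choosing Ctsf by its likeness over these same libraries. Closest to Bag3 were Wdhd1, Supt4h1, Snf8 and Gstz1, at differences of 0.015 to 0.021, none of which was called. That too follows from the choice, as Bag3 itself was not called.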

How the data were processed

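Polyadenylated RNA of 6 libraries was sequenced by the authors with a stranded kit. Per the paper's methods, the authors trimmed the reads, mapped them to RGSC6 by TopHat2 and kept unique alignments. One deposited table holds read counts, as raw whole numbers for each gene, and the other holds FPKM as the authors computed them. The counting tool and its strand setting were not given in the sources used here. For the counts, edgeR 4.0.16 in R 4.3.3 was used (filterByExpr, TMM, glmQLFit and glmQLFTest, no block), with Benjamini-Hochberg adjustment over 12420 genes, after the script had been tested on simulated data. FPKM were compared with exact permutation tests in scipy 1.17.1. Alternatives used DESeq2 1.42.0 and limma 3.58.1, the latter on log2(FPKM + 1) and log2(FPKM + 0.1). The members, lists and tests were chosen with earlier results of these data known. All members were named, with up to 6 called genes and up to 3 others of each list, the genes closest to Cryab and Bag3, and the neighbors of Cryab. Same-numbered libraries were not taken as pairs. Some marker genes are not reported here. Splicing and RT-qPCR were not analysed here.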

Additional observations from a re-analysis of the deposited data

How the results depend on the processing

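Under 12 other scalings, filters, tests, tables and the replicate block, and with each library left out, Cryab was called higher in all 18 fits (log2 fold change 0.61 to 0.70, highest adjusted p = 0.00732 from edgeR). Hspb6 and Hsf1 were called in none. Bag3 was called without siCtrl replicate 2 (-0.193), where the number of members lower was 1 against 0 otherwise. Hspb7, with 16 adjusted p, was called in none (0.0755 to 0.328). It was not tested with the CPM minimum, DESeq2 gave it no adjusted p, and its log2 fold change was -0.17 on log2(FPKM + 1). With the replicate number as a block, Cryab was at 0.68 (adjusted p = 0.00346), 1 member was higher and none lower, list genes called numbered 10 against 12, and genes called over all those tested numbered 610 higher and 740 lower against 654 and 917. The correlations of the deviations of same-numbered libraries were -0.0383, 0.161 and 0.0568, and those of libraries with different numbers ran from -0.171 to 0.149. Not every library correlated best with its own number. Deviations from a mean of 3 libraries cannot decide whether the numbers mark pairs. With 1 library left out, the genes called over the whole table ranged from 167 to 2164 higher and from 351 to 2036 lower, and the list genes called from 5 to 22. The members lower ranged from 0 to 1 and the log2 fold change of Bag3 from -0.194 to -0.139. The order of the members differed at 2 places in siNQO1 libraries alone (Bag3 and Hspb6) and at 2 in siCtrl libraries alone (Hspb1 and Hspb8). The ratios of Cryab to Hspb6, Bag3 and Hsf1 moved by less than the spread within groups. Hspb2, Hspb1 and Hspb8 held at most 18 reads per library, and with no filter none of them passed (adjusted p = 0.862, 0.417 and 0.626 from edgeR).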

Other observations

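Among the protein-coding neighbors of the Hspb2 and Cryab pair in the order of GRCr8, 3 on each side, none shared the rise of Cryab. Dlat, a subunit of pyruvate dehydrogenase, was lower (log2 fold change of -0.27 with a standard error of 0.069 and an adjusted p of 0.0382 from edgeR), a call that was lost without siNQO1 replicate 2 or 3 or siCtrl replicate 1 or 3 (highest adjusted p = 0.144). Dixdc1, Fdxacb1 and the glycosyltransferase gene Alg9 had log2 fold changes of 0.03, 0.05 and -0.12 and did not pass (adjusted p = 0.942, 0.917 and 0.271). C8h11orf52 and Cfap68 were not tested.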
